A study of Homo sapiens with 10 samples.

Results

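The comparison described here sets MCF10A cells after 5, 6 and 8 days of TGFβ1 (3 arrays, called days 5 to 8) against the same line after 2, 3 and 4 days (3 arrays, called days 2 to 4), over all 23786 genes measured. The 6 arrays were chosen by treatment time alone, out of 10 arrays in the series. MCF10A is an established, non-tumorigenic line of human breast epithelium. All 6 cultures received TGFβ1 at 10 ng/mL in complete medium. The methods of the study add that starts were staggered so that all plates were harvested together, after a period without serum. The other 4 arrays, namely untreated cells, 4 h, day 1 and day 12, enter no test and are given as further values. From several layers of data, the study proposes an intermediate state on days 2 to 4 that passes gradually into a mesenchymal state. The comparison asks which transcripts differed between the days before and after. In the study, a tree of the time points left out mRNA, while the layers of the other approach are not named in its text. Each time had 1 array, so the 3 arrays of a group are different days and not replicates of 1 condition. The labels do not say whether the RNA on an array was pooled from several cultures.

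TGFβ is a secreted cytokine that halts the proliferation of normal epithelial cells and drives them into epithelial to mesenchymal transition (EMT), in which cells loosen their junctions and deposit matrix. In dividing cells, transcripts of the mitotic machinery build up in G2 and M phase. The MuvB complex with MYBL2 and FOXM1 activates them, and DREAM, a complex of MuvB with p130 and E2F4, represses them in quiescent cells. Both act through a short promoter element, the cell cycle genes homology region (CHR), often with CCAAT boxes nearby that bind NF-Y.

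Genes of mitosis were the largest group among those higher in days 5 to 8. Of 53 genes called higher, 28 belonged to lists of kinases, kinetochore proteins, motors, chromosome proteins and cytokinesis factors, with differences of up to 1.96 log2 (3.88-fold). The others included matrix and signalling genes such as TGFB2 and FBN1. The 17 genes called lower included AZGP1 and PI3, which encode secreted proteins, the sterol gene INSIG1, the interferon-induced genes IFI27 and IFI6, and the chemokine gene CXCL8. Genes were called with limma, a linear model with moderated spread, at an adjusted p (Benjamini-Hochberg) of 0.05 or less and a difference of 1 log2 or more. The genes called higher were 0.223% of those tested and the genes called lower 0.0715%. In each of the 70 called genes, the 3 arrays of days 5 to 8 lay wholly beyond the 3 arrays of days 2 to 4. The limits for a call favour genes without overlap, so this adds no support to the calls. Over all genes, 9.64% were higher without overlap and 10.2% lower without overlap. Of the 23786 genes, 10811 had a difference above 0 and 12975 below 0. An unadjusted limma p under 0.05 was found in 3353 of them, which is the background for the list counts below.

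These calls lay close to the threshold, with adjusted p between 0.0213 and 0.0492, and they depended on single arrays. Without day 2, day 3, day 6 or day 8, limma called 0 genes in either direction, although 2566 to 2860 genes then had an unadjusted p under 0.05, against 3353 with all 6 arrays. Without day 4 it called 121 genes higher and 51 lower, and without day 5, 80 and 25. With day as a further linear term 0 genes were called, with 914 at an unadjusted p under 0.05, in a design where group and day run together. The spread within a group holds both noise between arrays and change from day to day (median residual SD 0.163). The medians of the 6 arrays lay between 2.93 and 2.98 log2, and each array had a mean Pearson correlation across genes of 0.987 to 0.990 with the other 5. No array stood apart on these measures.

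**Figure D1:**
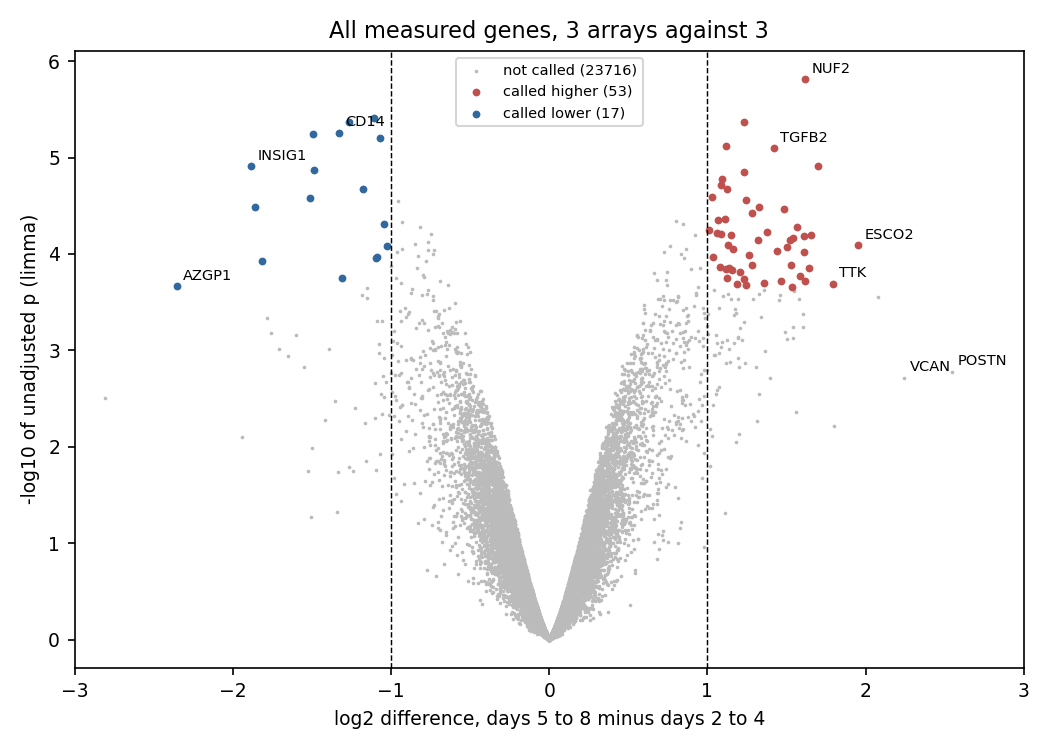
Each point is 1 of 23786 genes, with the log2 difference (days 5 to 8 minus days 2 to 4) on the horizontal axis and -log10 of the unadjusted limma p on the vertical axis. The 53 genes called higher and 17 called lower are coloured, and POSTN and VCAN lie far to the right without a call.

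The promoters of the mitosis genes are shown first, since 18 of them hold the letters of the CHR. RefSeq windows of build GRCh38.p14, from 250 bases before to 50 bases after the start of transcription, were at hand for 21 of the 28 called mitosis genes. The letters TTTGAA or TTTAAA stood on either strand in 18 of the 21 (85.7%), against 24.6% of 16338 measured genes with a window. CCAAT stood in 14 of the 21 (66.7%), against 41.8%. The share with the CHR letters was 60.0% for all 40 genes called higher that had a window and 40.0% for the 15 genes called lower. The 40 include the 21 mitosis genes, which made up 18 of the 24 genes with the letters. The share among mitosis genes that were not called was not computed. A gene with several windows was counted once, with a match in any of them. The 5 stretches below end at the base before the start site, run 5′ to 3′ on the gene's strand and carry the CHR and CCAAT letters of either strand in capitals. They were picked for having the elements close to the start, except in TOP2A, whose nearest CHR letters begin at base -151 from the start site. The stretches belong to a centromere motor (CENPE, chr4:103198344-103198463, minus strand), a spindle motor (KIF11, chr10:92593010-92593129, plus strand), a midzone motor (KIF20A, chr5:138178992-138179111, plus strand), a spindle protein (CKAP2L, chr2:112764610-112764729, minus strand) and the topoisomerase of mitotic chromosomes (TOP2A, chr17:40417897-40418066, minus strand).
CENPE: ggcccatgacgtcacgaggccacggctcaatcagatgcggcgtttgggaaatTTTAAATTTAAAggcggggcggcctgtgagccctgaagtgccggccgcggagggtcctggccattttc
KIF11: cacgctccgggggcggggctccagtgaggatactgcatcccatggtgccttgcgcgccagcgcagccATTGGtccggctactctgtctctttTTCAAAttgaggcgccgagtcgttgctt
KIF20A: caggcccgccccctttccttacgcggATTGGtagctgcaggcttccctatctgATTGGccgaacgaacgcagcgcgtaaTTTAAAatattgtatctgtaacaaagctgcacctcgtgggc
CKAP2L: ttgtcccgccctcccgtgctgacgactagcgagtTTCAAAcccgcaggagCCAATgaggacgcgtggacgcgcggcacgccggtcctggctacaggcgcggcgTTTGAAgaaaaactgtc
TOP2A: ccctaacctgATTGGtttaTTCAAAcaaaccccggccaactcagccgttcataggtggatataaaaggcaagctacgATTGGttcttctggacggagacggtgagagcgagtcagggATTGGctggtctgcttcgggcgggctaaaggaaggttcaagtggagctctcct
KIF20A has a pair of CCAAT matches, both read from the other strand, upstream of its CHR letters. CENPE has a run of adjoining CHR letters and no CCAAT match in the stretch shown. A match describes these letters only, and binding was not measured.

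Checkpoint and kinetochore genes had 6 of 25 measured members called higher and 0 lower, with a median difference of 0.71 log2, against -0.02 over all genes. TTK (Entrez 7272), the kinase MPS1 that starts the spindle checkpoint, lay at 4.97, 5.94 and 5.78 on days 5, 6 and 8, against 3.60, 3.38 and 4.34 on days 2, 3 and 4. The difference was 1.79 log2 (SE 0.30, 3.46-fold, adjusted p = 0.0483), and the day 4 array was the nearest to the later group. SGO1, which guards the cohesin of centromeres, had 4.66, 5.49 and 5.13 on days 5, 6 and 8, against 3.26, 3.47 and 3.46 on days 2, 3 and 4. Its 3 earlier values were nearly level, and the difference was 1.70 (SE 0.20, adjusted p = 0.0256), with a step of 1.20 from the day 4 array to the day 5 array. NUF2, a subunit of the NDC80 complex that holds microtubules, was at 4.98, 5.05 and 5.12, against 3.38, 3.20 and 3.72, a difference of 1.62 with the smallest SE among the 6 called members (0.14, adjusted p = 0.0213). Its partner NDC80 was higher by 1.54, the scaffold gene KNL1 by 1.61 and the checkpoint kinase gene BUB1 by 1.52. In bulk RNA a larger share of cells in mitosis and more RNA in each such cell cannot be told apart.

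Among mitotic cyclins, kinases and phosphatases, 5 of 21 were called higher and 0 lower, with a median of 0.80. CDK1 (Entrez 983), the kinase that drives entry into mitosis, had 4.52, 5.21 and 5.44 on days 5, 6 and 8, against 3.19, 3.18 and 3.86 on days 2, 3 and 4. It was 3.13-fold higher in days 5 to 8 (1.65 log2, SE 0.26, adjusted p = 0.0424), and its values went on upward from day to day after day 3. PBK, which encodes a mitotic kinase, gave 4.26, 5.07 and 5.26, against 3.24, 3.19 and 3.33 on the same days, a difference of 1.61. AURKA, the centrosome kinase, was at 2.68, 2.91 and 2.99, against 1.89, 1.48 and 1.95 and its activator gene TPX2 at 6.45, 6.76 and 6.92, against 5.28, 5.27 and 5.73. Both were higher, by 1.09 (SE 0.15) and 1.28 (SE 0.17), with no overlap between the groups. On days 2, 3 and 4 AURKA lay near or below the lower quartile of the arrays (1.68), that is, near background.

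**Figure D2:**
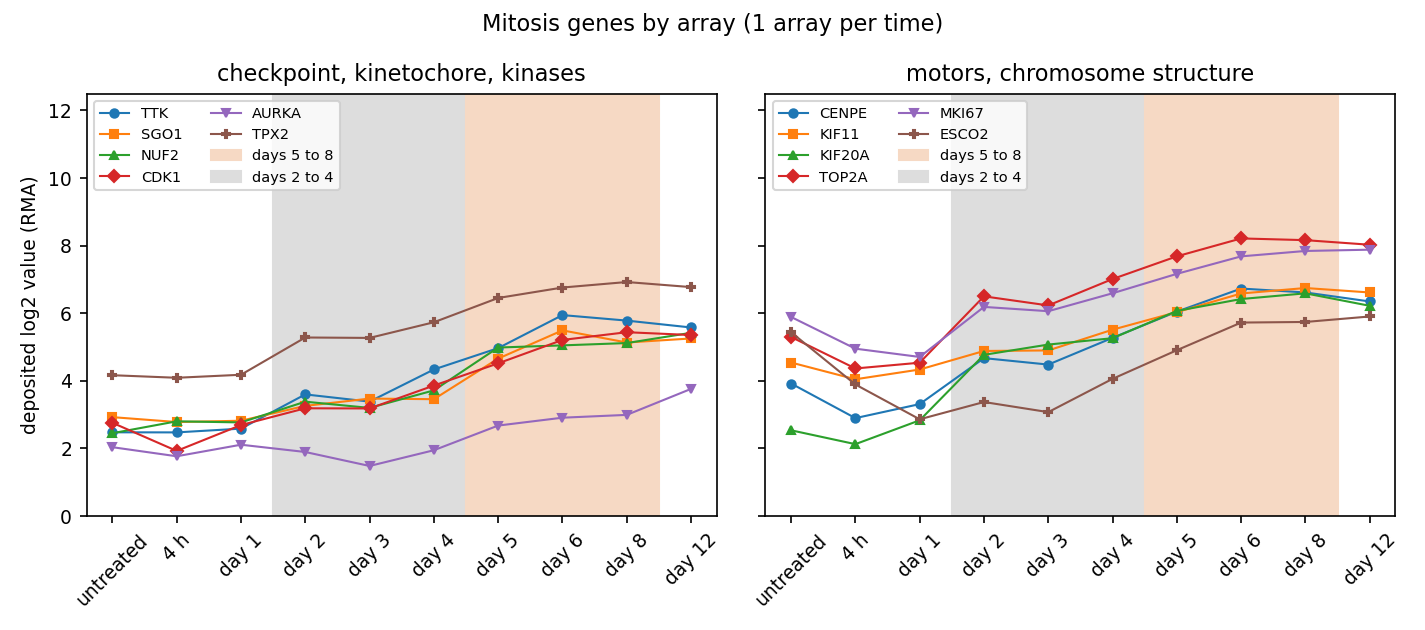
Deposited log2 values of 12 called mitosis genes (vertical axis) on the 10 arrays in order of time (horizontal axis, 1 point per array, grey for days 2 to 4 and orange for days 5 to 8). TTK, at 4.97 to 5.94 in the orange band, lies above its 3.38 to 4.34 in the grey band, and AURKA is at its highest value on day 12.

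Kinesins of mitosis stood out by their median, 1.15 log2 over 14 members, of which 5 were called higher and 0 lower. KIF20A, which works in the central spindle, had 6.07, 6.42 and 6.59 on days 5, 6 and 8, against 4.77, 5.07 and 5.26 on days 2, 3 and 4 (difference 1.32, SE 0.17, adjusted p = 0.0339). KIF18A, which dampens chromosome movements at the metaphase plate, gave 5.17, 5.59 and 5.56, against 4.04, 4.10 and 4.45, a difference of 1.24. KIF14 was higher by 1.53 and KIF11, which separates the spindle poles, by 1.36. In all 14 members the difference was above 0, and in 12 the groups did not overlap (85.7%, against 9.64% of all genes).

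Cytokinesis and midzone genes had 6 of 20 called higher and 0 lower, a median of 1.08, and 19 of 20 members higher without overlap (95.0%). CKAP2L lay at 5.06, 5.36 and 5.35 on days 5, 6 and 8, against 3.19, 3.50 and 4.33 on days 2, 3 and 4, where day 4 was already well above day 2. Its difference was 1.59 (SE 0.26, adjusted p = 0.0465). DLGAP5, a stabiliser of spindle fibres, gave 5.69, 6.07 and 6.22, against 4.19, 4.19 and 4.91, and CEP55, which recruits the abscission machinery, 4.74, 5.05 and 5.31, against 3.13, 3.48 and 3.97. These genes were 2.96-fold and 2.84-fold higher. ARHGAP11A was higher by 1.25, but it has a near-identical copy, ARHGAP11B, also called, so that the probes may not separate the pair. DIAPH3, an actin-nucleating formin needed for cell division, stood outside the lists with 5.15, 5.50 and 5.87, against 3.64, 3.54 and 4.49 (difference 1.62).

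Genes of chromosome structure had 5 of 21 called higher and 0 lower, with a median of 0.69. ESCO2, the enzyme that acetylates cohesin in S phase, had the largest difference among all genes called higher, with 4.91, 5.72 and 5.74 on days 5, 6 and 8, against 3.37, 3.07 and 4.06 on days 2, 3 and 4 (1.96 log2, SE 0.29, adjusted p = 0.0375). Its untreated value, 5.44, lay within the range of days 5 to 8, unlike that of most mitosis genes. Relative to each gene's mean over days 2 to 4, the mitosis lists together had a median of -0.24 in untreated cells. On days 5, 6 and 8 that median was 0.39, 0.70 and 0.89. TOP2A, which untangles sister chromatids, was at 7.68, 8.21 and 8.16, against 6.50, 6.23 and 7.01 and MKI67, which coats mitotic chromosomes and is a common marker of proliferation, at 7.16, 7.68 and 7.84, against 6.19, 6.06 and 6.59. They were higher by 1.44 (SE 0.22) and 1.28 (SE 0.20), with no overlap. NCAPG, a condensin subunit, was higher by 1.53. Among 20 centromere proteins only CENPE was called, with 6.05, 6.73 and 6.61, against 4.67, 4.48 and 5.27 (difference 1.66, SE 0.24), and the median of that list was 0.43. Of the 20, 12 were higher without overlap (60%, against 9.64% of all genes) and 1 was lower without overlap.

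The anaphase promoting complex, which ends mitosis by marking cyclins for destruction, differed from the lists above in its counts, with 0 of 17 called and a median of 0.07. Its activator gene CDC20 had 4.86, 5.27 and 5.69, against 4.25, 4.82 and 4.33 (difference 0.80, adjusted p = 0.152) and its ubiquitin-conjugating enzyme gene UBE2C 3.64, 4.26 and 4.29, against 3.62, 3.36 and 3.37 (difference 0.61, adjusted p = 0.177). Over all 7 mitosis lists, 28 of 138 members were called higher (20.3%) and 0 lower, with a median of 0.65, and 90 (65.2%) were higher without overlap. Leaving out 1 array at a time gave medians between 0.55 and 0.81, whereas day as a further linear term gave a median of 0.28, with 0 called and 20 higher at an unadjusted p under 0.05. The count of called members was 0 without day 2, 3, 6 or 8 and 44 without day 4 or day 5.

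DNA synthesis and its regulators moved less by these counts. In the list of replication and S phase, 0 of 46 genes were called by limma, 19 had an unadjusted p under 0.05, and the median was 0.24, with 41 differences above 0. The groups did not overlap in 19 genes that were higher (41.3%, against 9.64% of all genes), and 0 were lower without overlap. RRM2, a subunit of ribonucleotide reductase, had 4.72, 5.52 and 6.05 on days 5, 6 and 8, against 3.78, 3.85 and 4.20 on days 2, 3 and 4. The difference of 1.49 (SE 0.29, adjusted p = 0.0671) was not called, and neither was that of DTL, which targets licensing factors in S phase (4.37, 4.71 and 5.34, against 3.63, 3.43 and 4.14, difference 1.07). Both genes went on to higher values on day 12, 6.46 and 6.52. Among MuvB, FOXM1 and E2F regulators 0 of 20 were called, with 6 at an unadjusted p under 0.05 and a median of 0.08. FOXM1 itself gave 3.53, 4.78 and 4.41, against 3.09, 2.91 and 3.02 (difference 1.24, adjusted p = 0.0864), with days 6 and 8 well above day 5. RBL1, which encodes the pocket protein p107, had a difference of 0.85 (adjusted p = 0.0724).

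G1 cyclins, CDKs and their inhibitors had 0 of 19 called, 6 at an unadjusted p under 0.05 and a median of 0.08. CDKN3, a phosphatase of CDKs whose transcript itself is high in mitosis, had 3.56, 3.80 and 4.46, against 2.86, 2.42 and 2.92 (difference 1.21, adjusted p = 0.0663). GADD45A, a growth arrest gene, gave 8.06, 8.07 and 8.03, against 7.31, 7.30 and 7.63 (difference 0.64, adjusted p = 0.0671). Repair by recombination had a median of 0.56, no member below 0 and 16 of 25 genes (64%) higher without overlap. Of the 25, 2 were called higher. These were POLQ, the polymerase of end joining by microhomology (3.74, 4.17 and 4.34, against 2.45, 2.84 and 3.00, difference 1.32, SE 0.19), and FANCD2, of the Fanconi anaemia pathway (4.83, 5.19 and 5.44, against 4.09, 3.88 and 4.25, difference 1.08, SE 0.17). LMNB1, a lamin of the nuclear envelope, was at 4.04, 4.73 and 5.14, against 3.27, 3.41 and 3.58, an uncalled difference of 1.22 (adjusted p = 0.0708). Replication-dependent histones, which follow S phase, had a median of -0.23 and 0 of 32 called (12 at an unadjusted p under 0.05), with 21 differences below 0 and 11 above, up to 0.68. Of the 32, 11 lay below the lower quartile of the arrays. In that list H2BC8 differed by -0.95 (adjusted p = 0.0861) and H4C2 by -0.85 (adjusted p = 0.117).

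**Figure D3:**
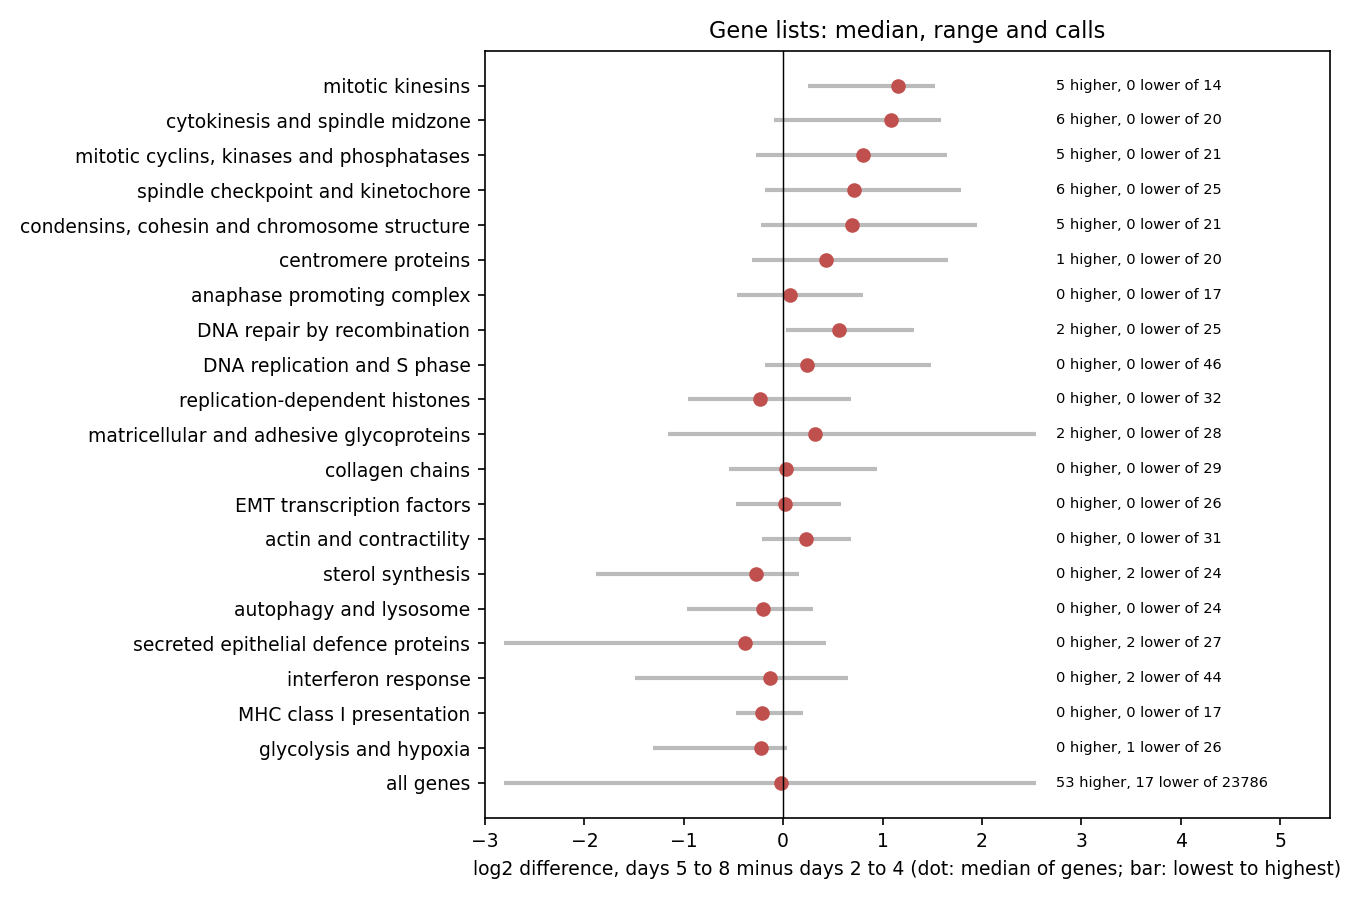
For 20 gene lists and all genes, the dot gives the median log2 difference (days 5 to 8 minus days 2 to 4) and the bar its lowest and highest member, with the counts called at the right. Medians reach 1.15 for the kinesins and 1.08 for cytokinesis genes, against -0.02 for all genes.

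The comparison of 2 blocks of days does not say where between day 2 and day 8 a difference arose, so neighbouring arrays were compared as a description. Over all genes, day 4 to day 5 was not the largest step. Genes at least 1 log2 apart numbered 191 between days 2 and 3, 180 between days 3 and 4, 144 between days 4 and 5, 123 between days 5 and 6 and 117 between days 6 and 8. For the 53 genes called higher the median step was -0.04, 0.40, 0.74, 0.31 and 0.17 in the same order, and for the 17 called lower it was 0.08, -0.14, -1.01, -0.09 and -0.24. The calls favour genes whose change lies between the blocks, so these medians describe the called genes and test nothing. The largest step was that from day 4 to day 5 in 40 of 53 genes called higher and in 16 of 17 called lower, and the step from day 3 to day 4 in 9 of the 53 called higher.

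**Figure D4:**
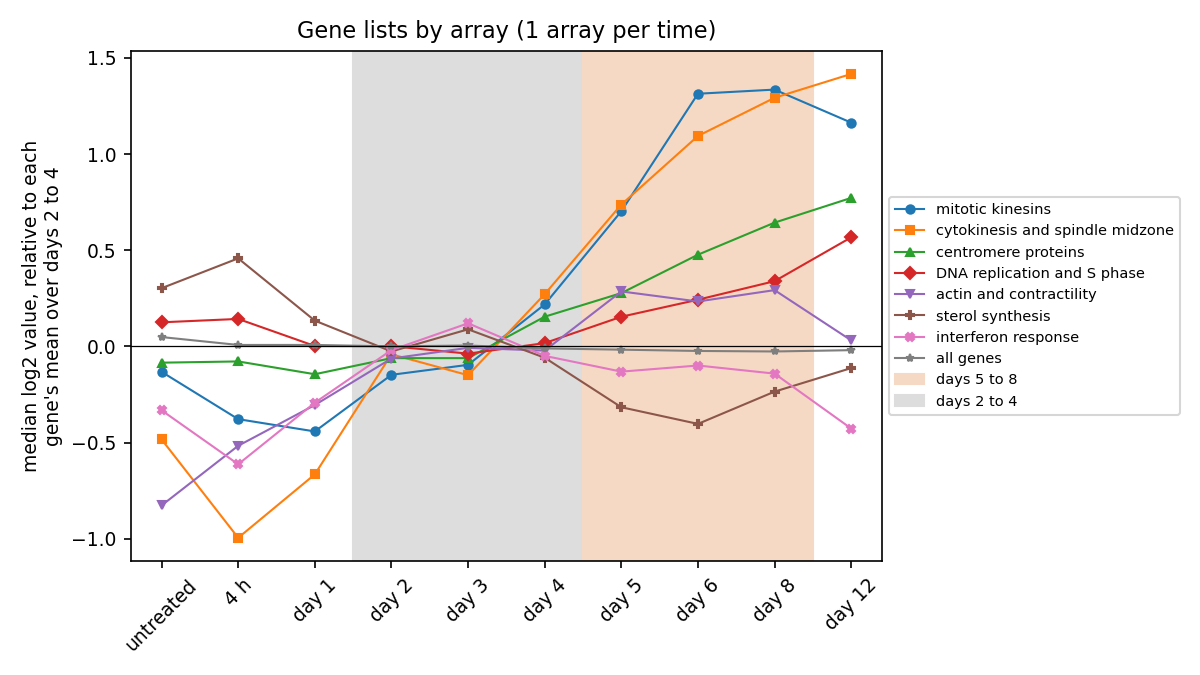
Median log2 value of 7 gene lists and all genes on each of the 10 arrays (horizontal axis, in order of time), relative to each gene's own mean over days 2 to 4 (vertical axis). Kinesins are at 0.22 on day 4, 0.70 on day 5 and 1.31 on day 6, while sterol synthesis is at -0.32 on day 5 and -0.11 on day 12.

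By list, the kinesins had medians of 0.70, 1.31 and 1.34 on days 5, 6 and 8, relative to each gene's mean over days 2 to 4, against -0.15, -0.10 and 0.22 on days 2, 3 and 4. On day 1 their median was -0.44, and on day 12 it was 1.16. The median was thus upward from day 1 to day 6, in steps before day 2 as well as after day 3, and differed little between days 6 and 8. Single genes also had large steps before day 2, such as KIF20A, at 2.83 on day 1 and 4.77 on day 2, and TOP2A, at 4.54 and 6.50 on these days. Replication genes were at 0.15, 0.24 and 0.34 on days 5, 6 and 8 and at 0.57 on day 12. AURKA (3.76) was higher on day 12 than on any of the 6 arrays, whereas TTK (5.58), TOP2A (8.03) and CENPE (6.35) lay within the range of days 5 to 8 on that day.

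Some genes of the matrix and of TGFβ signalling were called higher as well. TGFB2 (Entrez 7042), a TGFβ ligand, had 7.15, 7.46 and 7.41 on days 5, 6 and 8, against 5.87, 5.69 and 6.20 on days 2, 3 and 4. It was 2.68-fold higher (1.42 log2, SE 0.16, adjusted p = 0.0213), the only one called among 29 TGFβ ligands, receptors and feedback genes. ADAMTS6, a secreted metalloprotease, gave 7.05, 7.10 and 7.24, against 5.18, 5.55 and 6.28 (difference 1.46), the only one called among 35 metalloproteases and inhibitors, and its values were upward on every array from day 2 to day 8. Among 28 matricellular and adhesive glycoproteins 2 were called higher and 0 lower, with a median of 0.32. Of these, FBN1, which forms microfibrils, was at 4.38, 4.44 and 4.88, against 3.23, 3.12 and 3.73 and MFAP5, a microfibril partner, at 7.93, 7.87 and 8.19, against 6.61, 6.99 and 7.05. These genes were higher by 1.20 (SE 0.19) and 1.11 (SE 0.15), and FBN1 reached 5.65 on day 12.

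Some of the largest differences were not called, in genes whose values differed widely among days 2, 3 and 4. POSTN (Entrez 10631), which encodes the matrix protein periostin, had 7.64, 7.80 and 8.09 on days 5, 6 and 8, against 3.83, 5.36 and 6.71 on days 2, 3 and 4. Its difference of 2.54 (SE 0.57) was larger than that of any gene called higher, with an SD of 1.44 in days 2 to 4 against 0.23 in days 5 to 8, and adjusted p = 0.0937. VCAN, the proteoglycan versican, showed the same course with 8.72, 8.86 and 9.17, against 5.37, 6.69 and 7.95 (difference 2.24, adjusted p = 0.0983). ITGB3, an integrin subunit that binds vitronectin, gave 5.80, 5.22 and 5.60, against 3.12, 4.70 and 5.46 (difference 1.11, adjusted p = 0.349), so that day 4 lay above day 6. In all, 105 genes differed by at least 1 log2 without a call, 65 higher and 40 lower, and 96 of them had no overlap. In days 2 to 4 the values of POSTN, VCAN and ITGB3 were each higher on day 3 than on day 2 and higher still on day 4.

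**Figure D5:**
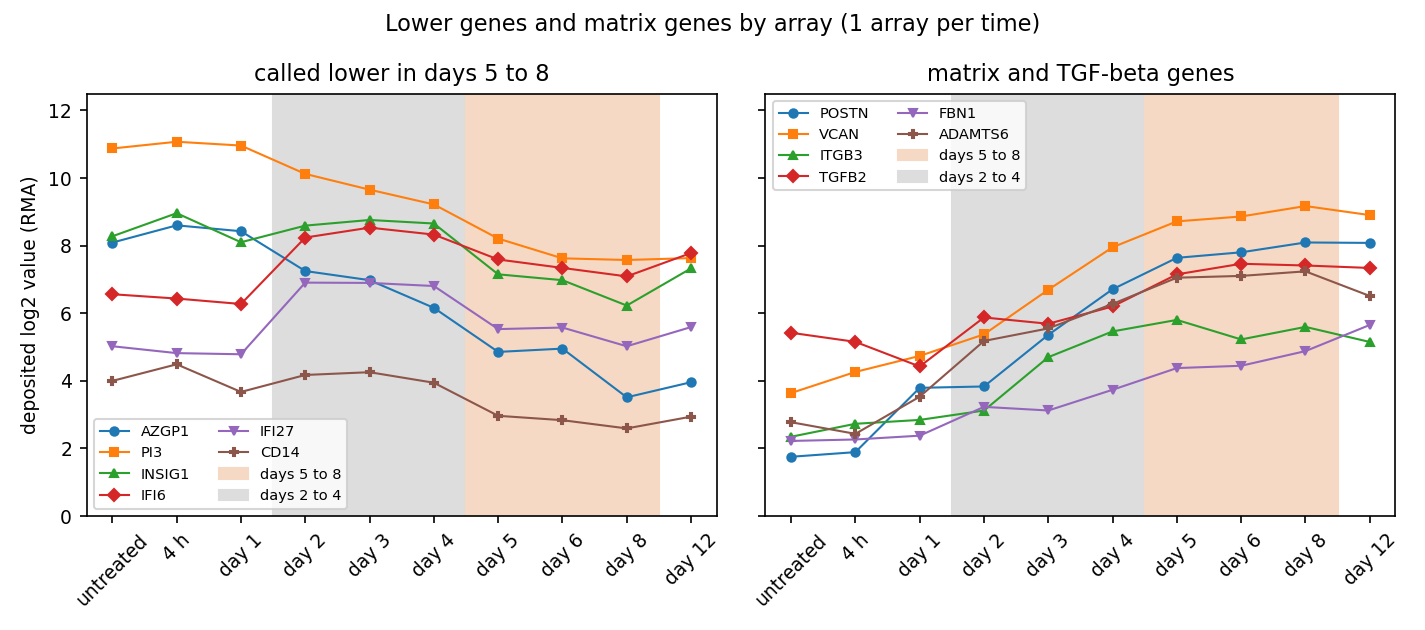
Deposited log2 values (vertical axis) of 6 genes called lower (left) and of 6 matrix and TGFβ genes (right) on the 10 arrays in order of time, with days 2 to 4 in grey and days 5 to 8 in orange. INSIG1 is level on days 2 to 4 and lower on day 5, whereas PI3 and AZGP1 decline and POSTN and VCAN climb through the grey band.

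The lists of EMT transcription factors, collagen chains, cadherins and actin genes had no called member. The same held for other matrix lists. These were proteoglycans (0 of 20, median -0.01), laminins and integrins (0 of 30, median 0.05) and collagen processing and crosslinking enzymes (0 of 18, median 0.02). Among 26 EMT transcription factors 0 were called by limma, 6 had an unadjusted p under 0.05 and the median was 0.02. ZEB2, a repressor of epithelial genes, had 5.57, 5.58 and 5.54, against 6.32, 5.66 and 6.14 (difference -0.48, adjusted p = 0.238). Collagen chains had 0 of 29 called (9 at an unadjusted p under 0.05) with a median of 0.03, where COL8A1 differed by 0.94 and COL4A1 by 0.66. Cadherins and adherens junctions had 0 of 16 called (4 at an unadjusted p under 0.05). CDH2, the N-cadherin of mesenchymal cells, was at 7.28, 7.75 and 7.70, against 6.47, 6.48 and 7.19 (difference 0.86, adjusted p = 0.118). CDH4, another cadherin, had an adjusted p of 0.0424 but a difference of 0.90, under the limit. Of 31 actin and contractility genes 28 had a difference above 0, with a median of 0.23 and 0 called (13 at an unadjusted p under 0.05), MYH10, a non-muscle myosin, among them at 6.30, 6.35 and 6.46, against 5.73, 5.82 and 6.04.

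Genes of sterol metabolism were also among those called lower. INSIG1 (Entrez 3638), which retains the sterol sensor in the endoplasmic reticulum, had 7.15, 6.98 and 6.23 on days 5, 6 and 8, against 8.59, 8.76 and 8.65 on days 2, 3 and 4. The difference was -1.88 log2 (3.69-fold, SE 0.22, adjusted p = 0.0256), and its 3 earlier values were nearly level. In untreated cells it was at 8.28, nearer to its values of days 2 to 4, and on day 12 at 7.33. Of 24 sterol genes, 2 were called lower and 0 higher, 11 had an unadjusted p under 0.05, and the median was -0.27. Picked after their values were seen, DHCR7 (-0.93), FDFT1 (-0.76) and SREBF2 (-0.79), which encodes the factor that activates sterol genes, had adjusted p values of 0.0370, 0.0375 and 0.0467 and a difference under the limit. CD36, a scavenger receptor for lipids, was lower as well, with 3.03, 3.37 and 3.00, against 4.53, 4.11 and 4.02 (difference -1.09, adjusted p = 0.0378). It was near background in untreated cells and on day 12 (1.03), so that both groups lay above those arrays.

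Secreted proteins of the epithelium were the next group. AZGP1 (Entrez 563), a secreted glycoprotein, had 4.86, 4.95 and 3.51 on days 5, 6 and 8, against 7.25, 6.98 and 6.16 on days 2, 3 and 4. At -2.35 log2 (SE 0.39, 5.12-fold, adjusted p = 0.0492) this was the largest difference among genes called lower, and its values went down within days 2 to 4 as well. PI3, the elastase inhibitor elafin, gave 8.21, 7.62 and 7.57, against 10.12, 9.65 and 9.22 (difference -1.86, SE 0.24). Both genes were highest in the first day of the course, at 8.60 and 11.07 after 4 h. A2ML1, another protease inhibitor, was at 3.14, 2.69 and 2.61, against 4.55, 4.24 and 4.10 (difference -1.49). Among 27 secreted defence proteins 2 were called lower and 0 higher, the median was -0.39, and 24 had a difference below 0. The serpin SERPINB13 had 4.03, 4.56 and 3.44, against 6.50, 5.36 and 5.30, an uncalled difference of -1.71 (adjusted p = 0.0762). REG1A, a secreted lectin-like protein picked after its values were seen, had the lowest difference of all genes without being called, with 1.34, 1.16 and 0.84, against 5.33, 4.51 and 1.93 (difference -2.81, SE 0.70, adjusted p = 0.121). Most of its change lay within days 2 to 4, and days 5 to 8 were near background.

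The interferon-induced genes IFI27 and IFI6 had a hump on days 2 to 4. IFI27, a small membrane protein, was at 5.53, 5.58 and 5.02 on days 5, 6 and 8, against 6.90, 6.90 and 6.80 on days 2, 3 and 4. In untreated cells, after 4 h and on day 1 it was at 5.02, 4.82 and 4.79, so that days 5 to 8 lay nearer to those values than days 2 to 4 did. The difference was -1.49 (SE 0.16, adjusted p = 0.0213). IFI6 had 7.59, 7.34 and 7.09, against 8.24, 8.53 and 8.33 (difference -1.03, SE 0.15, adjusted p = 0.0375), after 6.56 in untreated cells. Of 44 interferon response genes these were the 2 called lower, with 0 higher and a median of -0.13. MHC class I presentation had 0 of 17 called, 5 at an unadjusted p under 0.05 and a median of -0.22. Of its differences 15 were below 0, such as PSMB9 (-0.47) and ERAP2 (-0.46). Over all 23786 genes, 3353 had an unadjusted p under 0.05 and 12975 a difference below 0. The 170 bases before the start of IFI6 (chr1:27672193-27672362 of GRCh38.p14, minus strand) are shown because they hold 3 copies, in capitals, of the pattern GAAANNGAAA, the core of the element bound by interferon-activated factors.
IFI6: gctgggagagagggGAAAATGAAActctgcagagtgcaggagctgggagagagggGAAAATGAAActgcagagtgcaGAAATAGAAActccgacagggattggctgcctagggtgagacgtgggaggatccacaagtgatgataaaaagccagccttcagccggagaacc
The pattern was chosen after the calls were seen. On either strand it occurred in the windows of 2 of 15 genes called lower, IFI27 and IFI6, and in 4.14% of measured genes with a window.

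The chemokine gene CXCL8 and the hypoxia-induced gene EGLN3 were the called members of 2 further lists. CXCL8, the neutrophil chemokine interleukin-8, had 5.28, 5.27 and 4.78 on days 5, 6 and 8, against 6.11, 6.08 and 6.43 on days 2, 3 and 4 (difference -1.09, SE 0.17), the only one called among 29 interleukins and chemokines, whose median was -0.09 with 9 members above 0. Outside that list, BDKRB1, a receptor for kinin peptides, gave 2.08, 2.43 and 2.07, against 4.30, 4.45 and 3.27 (difference -1.81), and TREM1, an amplifier of inflammatory signals, 3.48, 3.06 and 3.39, against 4.30, 4.62 and 4.55 (difference -1.18). CD14, a co-receptor for bacterial lipopolysaccharide, was at 2.96, 2.83 and 2.59, against 4.17, 4.25 and 3.94 (difference -1.33, SE 0.14, adjusted p = 0.0213). EGLN3, a hypoxia-induced prolyl hydroxylase, lay at 1.52, 1.77 and 1.14, against 2.90, 3.08 and 2.37 (difference -1.31), with its later values near or below the lower quartile of the arrays (1.68), that is, near background. In the list of glycolysis and hypoxia 1 of 26 was called lower and 0 higher, the median was -0.22 and 23 differences were below 0.

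Among the other genes called lower, IGFL1, a secreted peptide of the epidermis, had 6.31, 6.29 and 6.15, against 7.66, 8.22 and 7.41 (difference -1.51). OVCA2, a serine hydrolase, gave 3.37, 3.29 and 3.36, against 4.56, 4.46 and 4.32 (difference -1.11) and TINAGL1, a matrix glycoprotein, 5.52, 5.57 and 5.39, against 6.63, 6.62 and 6.44 (difference -1.07). On day 12 these 3 genes were at 6.89, 4.68 and 6.26, above each of their values on days 5, 6 and 8. For lysosome genes, GLA, a lysosomal galactosidase, had 5.93, 6.13 and 5.89, against 6.67, 6.94 and 7.25 and TPP1, a lysosomal peptidase, 8.61, 8.39 and 8.16, against 9.19, 9.18 and 9.11. Their differences of -0.97 and -0.78 were not called (adjusted p = 0.0467 and 0.0512), and the list of 24 had a median of -0.20 with 0 called and 11 at an unadjusted p under 0.05. BTG2, a p53 target that slows proliferation, was at 6.21, 6.10 and 6.36, against 7.33, 7.26 and 6.76 (difference -0.89, adjusted p = 0.0596). Its list of p53 targets had a median of -0.19 and 0 of 22 called. In that list 3 had an unadjusted p under 0.05, against 3353 of all 23786 genes.

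The labelled cell type was checked with markers. Of 10 markers of basal mammary epithelium 0 were called (1 at an unadjusted p under 0.05) and the median difference was -0.01. KRT17 was the lowest of them, with 1.91, 1.68 and 2.21, against 3.25, 2.91 and 2.45 (difference -0.94, adjusted p = 0.0948). By their means in either group, all 10 lay above the lower quartile of the arrays. Of 6 immune markers CD14 alone was called lower and 0 higher. CD3E and PTPRC, which define T cells and leukocytes, were below the lower quartile in both groups. The summed level of the 6 was between 15.5 and 16.5 in days 5 to 8, against 17.3 to 17.8 in days 2 to 4. That sum includes CD14, which differed by -1.33, so it cannot be set against the result for CD14. The median difference of the 6 was -0.08, with 1 above 0 and 5 below. A part of immune cells in the result for CD14 was not tested. Luminal, fibroblast, endothelial and fat cell markers had 0 of 24 called (3 at an unadjusted p under 0.05), and medians of 0.14, -0.01, 0.12 and 0.00. Of the 24, only 8 lay below the lower quartile by their mean over the 6 arrays, so a level above it does not set the basal markers apart. The fibroblast marker FAP was at 10.77, 11.02 and 10.90, against 9.85, 10.27 and 10.54 (difference 0.67, adjusted p = 0.129). Of the 24 differences, 15 were above 0 and 9 below.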

How the data were processed

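RNA of MCF10A cells was measured on Affymetrix Human Gene 2.0 ST arrays. The deposited log2 values are the authors' RMA values (background correction, quantile normalization, median polish), made in affy with a custom mapping of probes to Entrez genes. RMA shrinks differences at low levels, and precision is limited by how few arrays there are. All 23786 genes were tested as deposited, without a filter on low values. Symbols came by Entrez identifier from the NCBI table of GRCh38.p14 for 23093 genes, and 693 had none. Columns of the 4 other arrays entered only the alternatives and the values by time.

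The groups were compared in R 4.3.3 with limma 3.58.1 (lmFit and eBayes, residual df 4, prior df 4.90), with p-values adjusted over all genes. P-values measure the spread between arrays of different days, which may hold technical and biological parts. The code was checked on simulated tables. Gene lists (44, beside marker lists) have no test and are given as counts and medians. Genes were named by rule, namely the 15 largest called differences in each direction, CDK1, TTK, POSTN and AZGP1, and for each list up to 4 called members, or else up to 2 with the largest difference. Genes outside this rule are marked, and some genes are not reported here. The comparison, the lists and the rule were chosen with earlier results of these data known.

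Promoter windows came from RefSeq (GRCh38.p14), matched by Entrez identifier, and were searched for exact letters on both strands. Sequences and motifs carry no test. Python 3.11.15 and matplotlib 3.10.9 served for the figures. Alternatives were scaling, a filter, the prior, the arrays in the fit, the form of the time term, the limit on the difference and each array left out.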

Additional observations from a re-analysis of the deposited data

How the results depend on the processing

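The counts of genes moved with the arrays used far more than with the scaling. Against 53 higher and 17 lower, centring each array gave 63 and 19, a robust prior 51 and 16, day 12 in the later group 72 and 21, and a straight line on day 63 and 14. Genes above the median gene gave 90 and 28, an intensity trend 95 and 31, and a further group of untreated cells, 4 h and day 1 gave 34 and 9. Day as a further linear term gave 0 and 0. Lower limits on the difference, 0.58 or none, gave 69 higher and 38 lower in either case. Days 6 and 8 against days 2 and 3, an alternative chosen after seeing the data, gave 140 and 56. Leaving out 1 array gave 0 to 121 higher and 0 to 51 lower, with 0 in both directions without day 2, 3, 6 or 8. Every fit without 1 array has fewer degrees of freedom, including those without day 4 or day 5. These called 172 and 105 genes in all, against 70 with all 6 arrays. No gene named with a value changed sign in these settings. The cause of the changes in count was not tested. No paired analysis was possible because the replicate numbers stand for days, which the groups do not share.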
